A study of Homo sapiens with 6 samples.

Results

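Transcripts of 39 DNA replication and G1/S genes were examined in 6 polyA RNA sequencing libraries of hTERT RPE1, an established human cell line from retinal pigment epithelium that carries telomerase. All 6 came from cells held at full confluency for 5 days, which the labels call quiescent, and then moved to fresh medium. For 6 hours the cells of 3 libraries received 100 nM combretastatin A4 (CA4), a small molecule that binds tubulin and depolymerizes microtubules, and those of the other 3 received 0.1% DMSO, its solvent. The comparison addresses how transcripts of the replication machinery differ after CA4 in cells labelled quiescent. Arrest was not measured directly, and transcripts of mitotic genes were present in every library (values given with those genes). The 39 genes, picked for their known function but with earlier results of these data in view, each matched 1 of the 38900 Ensembl IDs in the table. All 39 cleared the filter on low values, a mean normalized count of 10, and were tested among 13928 genes. The labels number the libraries of each group 1 to 3 and do not say that these were separate cultures, so the p-values measure the spread between these libraries, which may be technical.

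Before a cell copies its DNA, the origin recognition complex, CDC6 and CDT1 load the MCM2-7 helicase ring onto origins, a step called licensing. CDC45 and the GINS complex switch the ring on at the start of S phase. Polymerase alpha with primase then starts each new strand, replication factor C loads the PCNA clamp, FEN1 and LIG1 join the lagging strand fragments, and CAF-1 wraps the copies in new nucleosomes. Transcription of most of these genes is driven by E2F factors in late G1 and is repressed by RB family proteins and the DREAM complex in arrested cells, where little of their RNA is normally made.

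E2F factors bind TTTCCCGC and TTTGGCGC, and these 8 letters were searched on both strands in the 250 bases before each transcription start in RefSeq promoters of build GRCh38.p14. Of the 39 genes, 35 had a promoter in that table, and MCM4, MCM5, GINS4 and E2F8 had none. One motif or the other occurred in 14 of the 35 genes (40%), in 9 of 38 other replication genes (23.7%), in 2 of 27 mitotic genes (7.41%) and in 504 of 15843 protein-coding genes (3.18%). Counted by promoter, 14 of 44 (31.8%) held a motif, against 677 of all 35116 promoters of the same length (1.93%). The letters describe the sequence and do not show that a factor was bound. To show how near the start the motif lies, the stretch around it follows for 1 gene of each role, the one with the smallest p in the expression test among those with a motif. Each runs 5′ to 3′ on the strand of the gene, with the motif in capitals, which read GCGGGAAA or GCGCCAAA where it lies on the other strand. The distance given is that of the first capital from the transcription start.

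MCM7, helicase subunit, chr7:100101557-100101604, minus strand, position -187: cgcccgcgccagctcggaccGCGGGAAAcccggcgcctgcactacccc
CDT1, licensing factor, chr16:88803734-88803781, plus strand, position -35: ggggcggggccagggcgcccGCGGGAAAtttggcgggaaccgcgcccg
GINS2, helicase activator, chr16:85688958-85689005, minus strand, position -31: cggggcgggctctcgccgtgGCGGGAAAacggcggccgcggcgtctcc
POLA1, polymerase alpha, chrX:24693761-24693808, plus strand, position -137: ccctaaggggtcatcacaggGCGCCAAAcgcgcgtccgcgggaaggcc
PCNA, sliding clamp, chr20:5126654-5126701, minus strand, position -59: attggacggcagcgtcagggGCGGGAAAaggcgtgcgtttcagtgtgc
LIG1, DNA ligase, chr19:48170431-48170478, minus strand, position -114: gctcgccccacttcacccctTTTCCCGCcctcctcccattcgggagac
TYMS, thymidylate synthase, chr18:657594-657641, plus strand, position -39: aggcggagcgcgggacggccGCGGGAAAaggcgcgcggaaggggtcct
UHRF1, methylation maintenance, chr19:4909467-4909500, plus strand, position -14: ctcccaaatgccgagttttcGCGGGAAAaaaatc
E2F2, transcription factor, chr1:23531248-23531295, minus strand, position -42: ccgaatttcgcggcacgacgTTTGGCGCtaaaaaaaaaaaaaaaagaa
DTL, CDT1 turnover, chr1:212035720-212035747, plus strand, position -8: atcagagagcgtgacgtcagTTTGGCGC

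In 9 of these 10 stretches the motif begins 137 bases or fewer before the start, and in DTL it ends at the last base before it. The CHR letters TTTGAA, which mark genes expressed in G2 and mitosis, occurred in 1 of the 35 genes (2.86%), in 17 of 27 mitotic genes (63%) and in 14.2% of protein-coding genes. The CCAAT box occurred in 22 of the 35 (62.9%), in 57.9% of other replication genes, in 81.5% of mitotic genes and in 40.2% of protein-coding genes. The map of motif positions shows every gene with an E2F motif, including matches in the first 50 bases after the start, with which 19 of the 35 (54.3%) held a core motif.

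**Figure D1:**
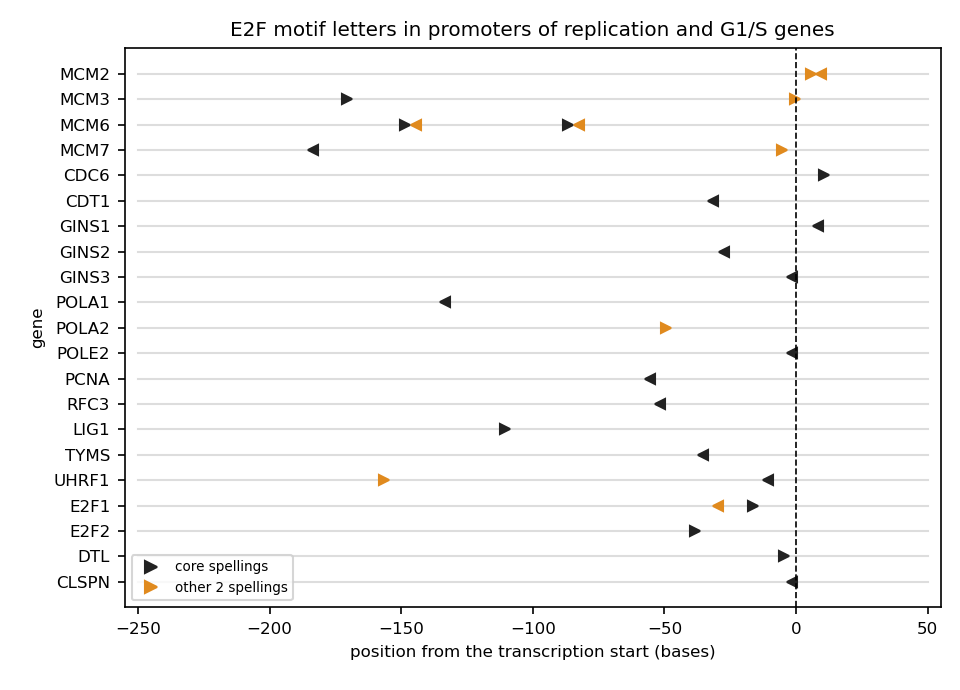
Position of E2F motif letters in the 300 bases around the transcription start of each gene that holds any (horizontal axis, bases from the start; triangles point along the strand of the match; black, the 2 core spellings; orange, the other 2 spellings). Starts of a gene with several promoters are overlaid on 1 line, and most matches lie in the 200 bases before the start or at it.

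No member of the 39 passed the threshold, an adjusted p of 0.05 by limma with Benjamini-Hochberg adjustment over all 13928 genes, although 38 of the 39 (97.4%) had a log2 fold change under 0, lower in CA4 than in DMSO. Over all tested genes 51.1% were lower, and 1.97% passed the threshold as lower and 2.97% as higher. The median log2 fold change of the 39 genes was -0.50, against -0.01 over all tested genes, and single genes ran from -0.98 (MCM4) to 0.22 (CDC6), the only one above 0. At an unadjusted p under 0.05, 7 genes (17.9%) were lower, where 11.0% of all tested genes were, and these were MCM2, MCM4, MCM5, MCM7, PRIM1, CHAF1A and CHAF1B. In 7 genes (17.9%) all 3 CA4 values lay under all 3 DMSO values, as they did in 13.4% of all tested genes. Without CA4 1 this count was 25 (64.1%), against 17.9% of all tested genes. It was 7 (17.9%) without DMSO 1, CA4 2 or CA4 3, against 21.9%, 20.2% and 17.4% of all tested genes. Without DMSO 2 it was 9 (23.1%, against 16.8%), and without DMSO 3 it was 13 (33.3%, against 17.7%). Of the count models run on the recovered reads, edgeR called none of the 39 (smallest adjusted p 0.0806; 1.82% of all tested genes were called lower). DESeq2 called 4 of them, or 10.3%, where it called 4.99% of all tested genes lower: CHAF1A (adjusted p = 0.0244), MCM2 (0.0331), MCM4 (0.0347) and MCM7 (0.0157). With the replicate number as a block, limma called 11 (28.2%) lower, where it called 8.16% of all tested genes lower. The labels do not say what that number marks.

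The libraries of each group differed among themselves by about as much as the groups did. The score of the 39 genes, their mean log2(normalized count + 1), was 8.601, 7.941 and 7.799 in DMSO replicates 1, 2 and 3 and 8.059, 7.706 and 7.143 in the CA4 replicates, an order kept for all per-library values below. The DMSO mean of 8.114 ± 0.427 and the CA4 mean of 7.636 ± 0.462 (SD, n = 3 per group) gave a difference of -0.478, and the groups overlapped because CA4 1 lay above both DMSO 2 and DMSO 3. Between libraries of the same number, CA4 minus DMSO was -0.542, -0.235 and -0.657 in this score. DMSO 1 held the highest of the 3 DMSO values in 38 of the 39 genes (97.4%; 38.1% of all tested genes), POLA2 being the exception. CA4 3 held the lowest CA4 value in 37 (94.9%; 32% of all tested genes), the exceptions being ORC6 and RFC5. CA4 1 held the highest CA4 value in 36 (92.3%; 33.6% of all tested genes). The mean over all tested genes hardly varied, being 8.421 ± 0.009 for DMSO and 8.407 ± 0.01 for CA4 (SD over 3 libraries). The 39 genes summed to 23176, 15217 and 14170 normalized counts in DMSO and to 16569, 12540 and 9518 in CA4. Without DMSO 1 the median log2 fold change was -0.26 with 30 genes lower, and without CA4 3 it was -0.21 with 32 lower. In RNA from whole cultures, fewer cells making these transcripts and less RNA per cell cannot be told apart.

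**Figure D2:**
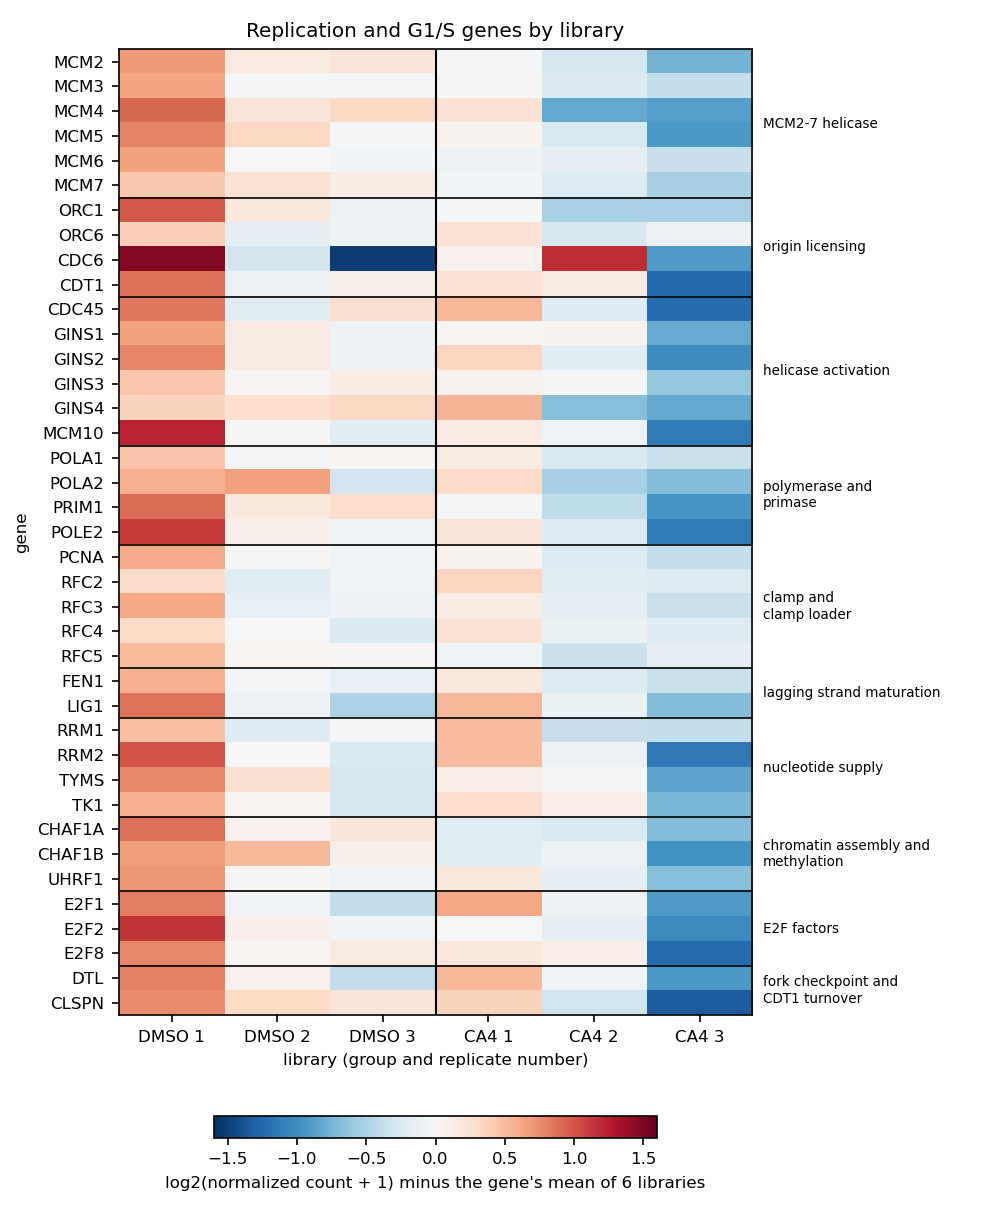
Heat map of the 39 genes (rows, grouped by role) in the 6 libraries (columns, group and replicate number). Colour gives log2(normalized count + 1) minus the mean of that gene over the 6 libraries: DMSO 1 lies above the mean in every row, and CA4 3 under it.

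The MCM2-7 helicase genes were lower in CA4 in 6 of 6, with a median log2 fold change of -0.61, and 3 of them (MCM2, MCM6 and MCM7) did not overlap between groups. MCM7 (ENSG00000166508), a subunit of the ring, had 1755.8, 1536.1 and 1409.2 normalized counts in DMSO and 1255.5, 1120.9 and 900.6 in CA4. The highest CA4 library was under the lowest DMSO library, and the log2 fold change was -0.53 with a standard error (SE) of 0.14. Its limma adjusted p of 0.0798 was the smallest of the 39. MCM3 had 1598.4, 1012.5 and 1017.9 in DMSO and 1044.8, 877.4 and 785.8 in CA4 (log2 fold change -0.40, SE 0.20, limma adjusted p = 0.281), where CA4 1 reached the level of DMSO 2 and 3. MCM4 and MCM2, picked here after their values were seen, had the lowest and the third lowest fold change of the ring. MCM4 had 1268.1, 772.2 and 840.4 in DMSO and 787.7, 377 and 363.4 in CA4, where CA4 1 was above DMSO 2 and only CA4 2 and 3 lay under all of DMSO (log2 fold change -0.98, SE 0.32, limma adjusted p = 0.125). MCM2 had 900.1, 624.5 and 648.6 in DMSO and 556.7, 464.5 and 333.3 in CA4 (log2 fold change -0.69, SE 0.22, limma adjusted p = 0.112). The other ring subunits, MCM5 and MCM6, had log2 fold changes of -0.73 and -0.40. The mean of the ring's 6 genes was 10.245, 9.713 and 9.655 in DMSO and 9.59, 9.24 and 8.923 in CA4 on the log2 scale, with no overlap between groups. Of the other roles only chromatin assembly and methylation was also apart, at 9.262, 8.712 and 8.582 against 8.443, 8.344 and 7.731.

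The licensing factors were less uniform, with 3 of 4 lower and a median of -0.34. ORC1, the largest origin recognition subunit, had 109.1, 61.7 and 51.3 in DMSO and 54.1, 38.1 and 37.9 in CA4 (log2 fold change -0.70, SE 0.33, limma adjusted p = 0.264). ORC6, another subunit of that complex, had 358.3, 246.8 and 261.1 against 324.7, 228.9 and 257.5, and its log2 fold change, -0.09, was smaller than its SE of 0.20. For CDT1, the loading factor destroyed in S phase, DMSO held 242.4, 122.5 and 138.6 and CA4 153.7, 144.7 and 54.6, so that only CA4 3 lay under all of DMSO (log2 fold change -0.58, SE 0.44). CDC6, the loading ATPase, was picked after its values were seen, as the 1 gene with a fold change above 0, and had 119.8, 34.6 and 14.2 in DMSO and 44.5, 97.6 and 22.3 in CA4. Its libraries spread widely within both groups, its log2 fold change of 0.22 carried an SE of 0.80, the widest of the 39, and its plain means went the other way, at 56.2 ± 56 in DMSO and 54.8 ± 38.7 in CA4 (SD, n = 3 per group).

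Genes that activate the helicase were lower in 6 of 6, with a median of -0.58 and no gene free of overlap. GINS4, a subunit of the GINS complex, had 257.9, 245.9 and 253.5 in DMSO and 294.8, 125.7 and 113.7 in CA4 (log2 fold change -0.64, SE 0.34, limma adjusted p = 0.311). Its DMSO values were close together, while CA4 1 lay above all of them and CA4 2 and 3 under all of them. Without CA4 1, limma called GINS4 and MCM4 lower, the only genes of the 39 to pass in any fit that left out a single library (smallest adjusted p 0.0403). These are 5.13% of the 39, and 0.452% of all tested genes were called lower in that fit. GINS1 had 211.5, 148.7 and 128.2 in DMSO and 140.1, 141.4 and 76.9 in CA4 (log2 fold change -0.46, SE 0.30). CDC45, GINS2, GINS3 and MCM10, the last of which helps to open the origin, had log2 fold changes of -0.61, -0.55, -0.39 and -0.71.

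All 4 polymerase and primase genes were lower, with a median of -0.69. PRIM1, the catalytic primase subunit that lays down RNA primers, had 89.8, 54.2 and 58.9 in DMSO and 47.4, 35.9 and 24.5 in CA4 with no overlap (log2 fold change -0.91, SE 0.33, limma adjusted p = 0.161). POLA1, the catalytic subunit of polymerase alpha, had 370.9, 264.6 and 276.3 against 297.7, 227.8 and 210.7 (log2 fold change -0.31, SE 0.19). Its partner POLA2 had 324.5, 345 and 176.6 against 269.6, 151.5 and 134.9 (log2 fold change -0.61, SE 0.34). In POLA1 and POLA2 the CA4 1 library was above at least 1 DMSO library. POLE2, a subunit of the leading strand polymerase, had a log2 fold change of -0.77 (SE 0.52) on as few as 6 reads in its lowest library, so counting error is large there. By GENCODE release 29 other genes share 16.2% of the exon length of PRIM1, 35.1% of that of POLA2 and 20.2% of that of RRM2 on the same strand, and 23.6% of that of MCM2 and of GINS4 on the opposite strand, and the handling of such reads is not given in the sources used here.

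**Figure D3:**
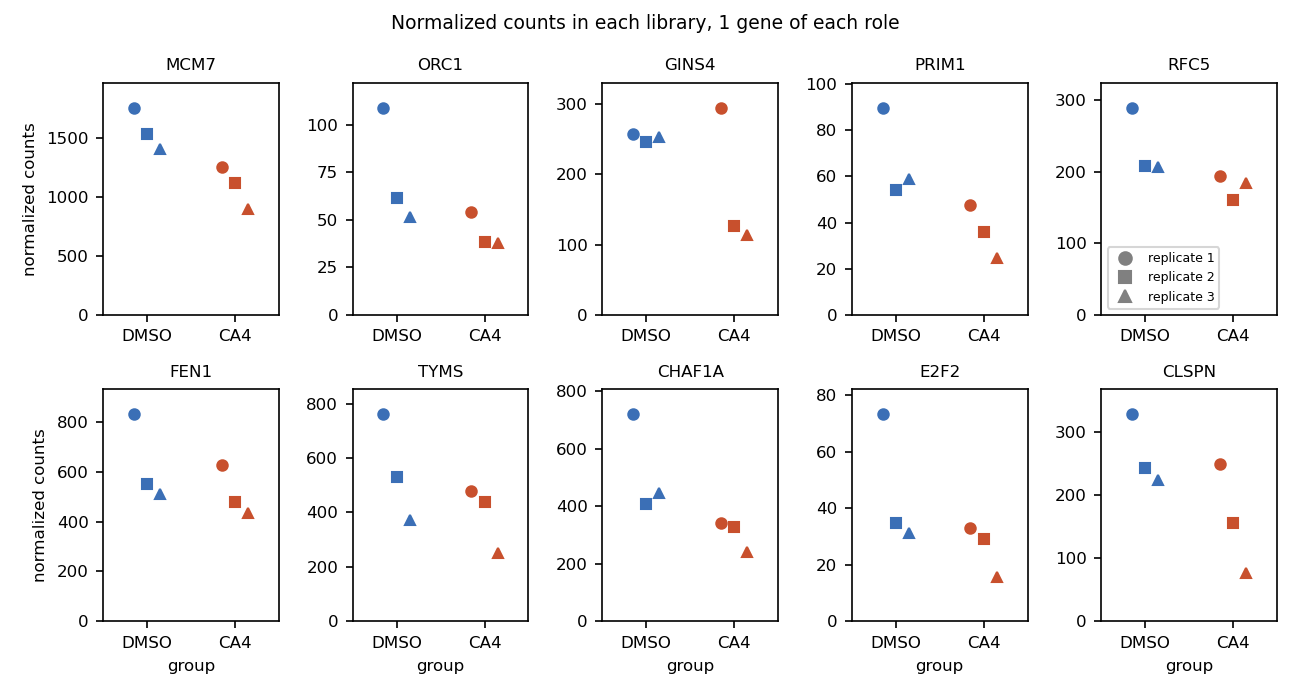
Normalized counts (vertical axes, from 0) of the gene with the smallest p of each role in the 3 DMSO (blue) and 3 CA4 (red) libraries, with circles, squares and triangles for replicates 1, 2 and 3. The groups do not overlap in MCM7, PRIM1, RFC5 and CHAF1A, and DMSO 1 is the highest point in every panel except that of GINS4.

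The clamp and its loader stood nearer to 0, with a median log2 fold change of -0.26. PCNA, the ring that tethers polymerases to DNA, had 1625.4, 1086.4 and 1020.8 in DMSO and 1117.3, 922.3 and 817 in CA4 (log2 fold change -0.37, SE 0.20, limma adjusted p = 0.318). RFC5 had 289.7, 207.5 and 206.1 against 194.3, 160.4 and 185 with no overlap (log2 fold change -0.37, SE 0.18), while RFC2 had 395, 278.6 and 304.8 against 403, 283.9 and 273.1 (log2 fold change -0.03, SE 0.20). RFC5 and RFC2 are subunits of the same loader, and the difference between their changes was not tested. RFC3 and RFC4 had log2 fold changes of -0.26 and -0.05.

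Lagging strand maturation genes had a median of -0.23. FEN1, the flap nuclease, had 834.4, 550.7 and 509.9 in DMSO and 627.2, 481.3 and 436.9 in CA4 (log2 fold change -0.28, SE 0.22). LIG1, the ligase that seals the fragments, had 778.4, 403.9 and 299.1 against 618.5, 395 and 263 (log2 fold change -0.18, SE 0.40), and its spread within each group exceeded the difference between them.

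Nucleotide supply genes were lower in 4 of 4 with a median of -0.36, each with overlap. RRM2, the cell cycle regulated subunit of ribonucleotide reductase, had 1993.4, 993.8 and 836.6 in DMSO and 1405.3, 929 and 448.1 in CA4 (log2 fold change -0.50, SE 0.45). RRM1, the large subunit, had 1326, 825.5 and 929.6 against 1342.4, 738.3 and 728.9 (log2 fold change -0.16, SE 0.27), and its highest value of all was CA4 1. The reads of RRM2 carry the same-strand uncertainty described for PRIM1 and POLA2. For TYMS, which makes thymidylate, the counts were 762, 530.1 and 370.3 against 478.4, 438.7 and 248.5 (log2 fold change -0.51, SE 0.32), and genes on the opposite strand cover 46.6% of its exon length. TK1, the thymidine kinase of the salvage route, had a log2 fold change of -0.23.

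Chromatin assembly and methylation genes had the lowest median of any role, -0.76, with 2 of 3 free of overlap. CHAF1A (ENSG00000167670), the large subunit of CAF-1, had 720.5, 407.6 and 444.4 in DMSO and 339.2, 327.6 and 239.6 in CA4, with every CA4 library under every DMSO library (log2 fold change -0.76, SE 0.24, limma adjusted p = 0.112). UHRF1, which brings the maintenance methyltransferase to new DNA, had 1382, 864.8 and 820.4 against 969.4, 763 and 533.9 (log2 fold change -0.44, SE 0.26), and there CA4 1 was above DMSO 2 and 3. CHAF1B, the middle subunit of CAF-1 and also without overlap, had a mean of 197.1 ± 40 for DMSO and 112 ± 33.6 for CA4 (SD over 3 libraries), a log2 fold change of -0.84 with an SE of 0.28.

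Of the E2F factors, E2F1, an activator, had 364.1, 197.3 and 155.7 in DMSO and 315.1, 194.1 and 109.2 in CA4 (log2 fold change -0.25, SE 0.43). E2F2, also an activator, had 73.4, 34.6 and 31.3 against 32.9, 29.2 and 15.6 (log2 fold change -0.78, SE 0.44), and E2F8, an atypical repressor, had 60.8, 36.5 and 38.9 against 39.6, 38.1 and 14.5 (log2 fold change -0.64, SE 0.44). DMSO 1 was the highest and CA4 3 the lowest of the 6 libraries in all 3 genes. CLSPN, the claspin adaptor that carries the fork checkpoint signal, had 329.3, 244 and 224.1 against 250.3, 156 and 76.9 (log2 fold change -0.86, SE 0.40, limma adjusted p = 0.253). DTL, the receptor of the ligase that destroys CDT1, had 301.3, 179.5 and 130.1 against 246.5, 163.8 and 90.3 (log2 fold change -0.31, SE 0.42). In both of these genes CA4 1 overlapped the DMSO libraries.

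**Figure D4:**
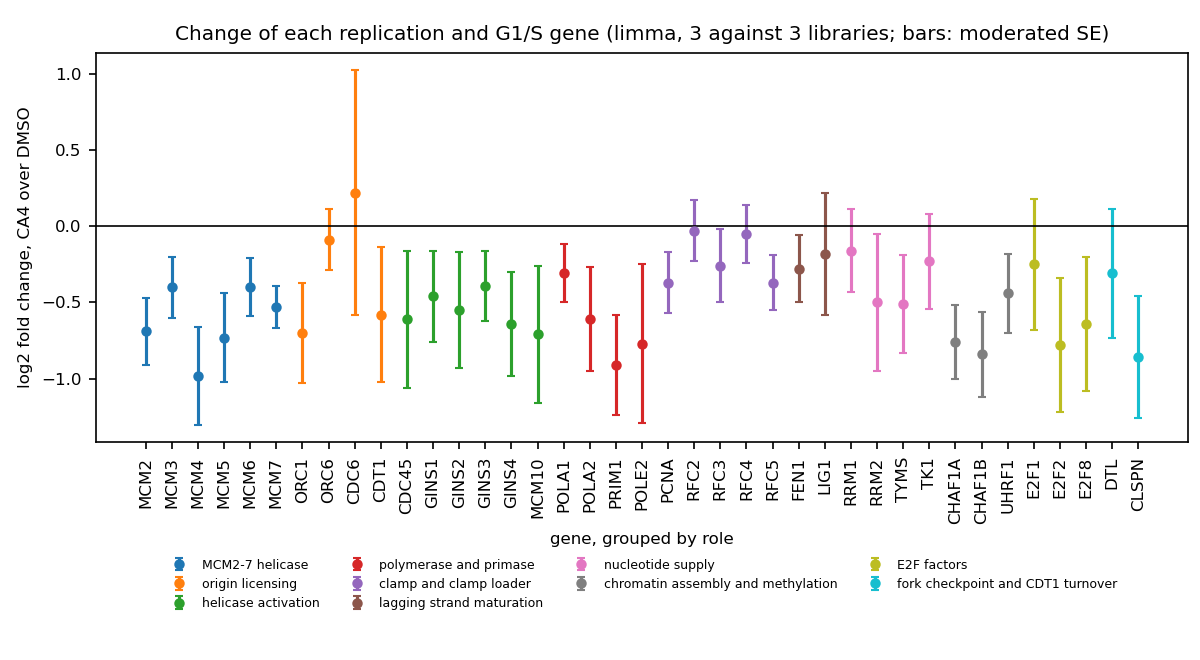
Log2 fold change of CA4 over DMSO (vertical axis) of the 39 genes, coloured by role, with limma's moderated standard error as bars (3 against 3 libraries). All points but that of CDC6 lie under 0, from -0.98 in MCM4 to -0.03 in RFC2.

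Genes with an E2F motif in the 250 bases before the start had a median log2 fold change of -0.40 (14 genes, from -0.78 to -0.18), and the 21 without one had -0.50 (from -0.91 to 0.22). The spreads of these groups overlap, and no difference between them was tested.

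Beyond the 39, 46 other replication genes had a median log2 fold change of -0.17, with 38 lower. Of them 1 (2.17%) passed the threshold, against 4.94% of all tested genes. Lower without overlap were 10 (21.7%), against 13.4% of all tested genes. At an unadjusted p under 0.05, 11 (23.9%) were lower, against 11.0%. RPA1, the large subunit of the protein that coats single-stranded DNA, fell from 1603.2, 1594 and 1541.2 in DMSO to 1219.7, 1177 and 1126.8 in CA4 (log2 fold change -0.43, SE 0.08, limma adjusted p = 0.0283). Its SD was 33.5 in DMSO and 46.5 in CA4, so the groups lay far apart against their spread. The call was kept only without DMSO 1 among the 6 fits that left out 1 library each, and the limma adjusted p was at most 0.109 in the other 5. HELLS, a chromatin remodeller of replicating cells, and ASF1A, a histone chaperone, had log2 fold changes of -1.27 and -0.56 and did not pass (limma adjusted p = 0.0812 and 0.116).

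Among 35 tested regulators of the G1/S step, of 36 listed, 26 were lower and the median was -0.21. Of the 35, 3 (8.57%) passed the threshold, against 4.94% of all tested genes. Lower without overlap were 11 (31.4%), against 13.4% of all tested genes. At an unadjusted p under 0.05, 9 (25.7%) were lower, against 11.0%. Higher were 4 without overlap and 3 at that p, where 1995 and 1661 of all 13928 tested genes were. CDKN1A, the p21 inhibitor of cyclin-dependent kinases, rose from 4763.2, 4711.9 and 4346.2 in DMSO to 9903.5, 9794.1 and 10928.4 in CA4 (log2 fold change 1.15, limma adjusted p = 0.00154). CDK6, a kinase that phosphorylates RB, fell from 1912.2, 1931.5 and 2319.8 to 1421.7, 1511.4 and 1397.7 (log2 fold change -0.50, limma adjusted p = 0.035). MYC, a growth factor induced activator of cell cycle entry, rose from 1091.3, 797.5 and 679.9 to 1817, 1322.9 and 1470.1 (log2 fold change 0.86, limma adjusted p = 0.0487). In all 3 regulators the groups did not overlap. CDKN1A passed in all 6 fits that left out 1 library. CDK6 and MYC passed only without DMSO 1, with limma adjusted p of at most 0.122 and 0.161 in the other 5. MYC also missed the threshold in 6 of 12 other settings, edgeR among them.

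Mitotic genes, which are expressed in G2 and M phase, shared the spread between libraries. Of 32 tested, 29 were lower with a median of -0.34, none passed the threshold (limma, smallest adjusted p 0.363), none had an unadjusted p under 0.05, and none was free of overlap. The median log2 fold change of mitotic genes was 0.073 without DMSO 1 and 0.029 without CA4 3, so its direction turned without either library. KIF20A, CCNB2 and NUSAP1, a spindle kinesin, a mitotic cyclin and a spindle protein, had log2 fold changes of -0.76, -0.76 and -0.67. The mean log2 level of all 32 mitotic genes was 9.475, 8.519 and 8.259 in DMSO and 9.169, 8.449 and 7.613 in CA4, so DMSO 1 was again the highest and CA4 3 the lowest of the 6. MKI67, a marker of proliferating cells picked after its values were seen, had 4849.2, 2044.6 and 2245.7 normalized counts with DMSO against 4233.2, 2387.7 and 1191.5 with CA4. The score of the 39 genes minus that of the mitotic genes was -0.874, -0.577 and -0.46 in DMSO and -1.11, -0.743 and -0.47 in CA4, where the groups overlapped. The part that the number of cycling cells in each culture has in the result was not tested.

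**Figure D5:**
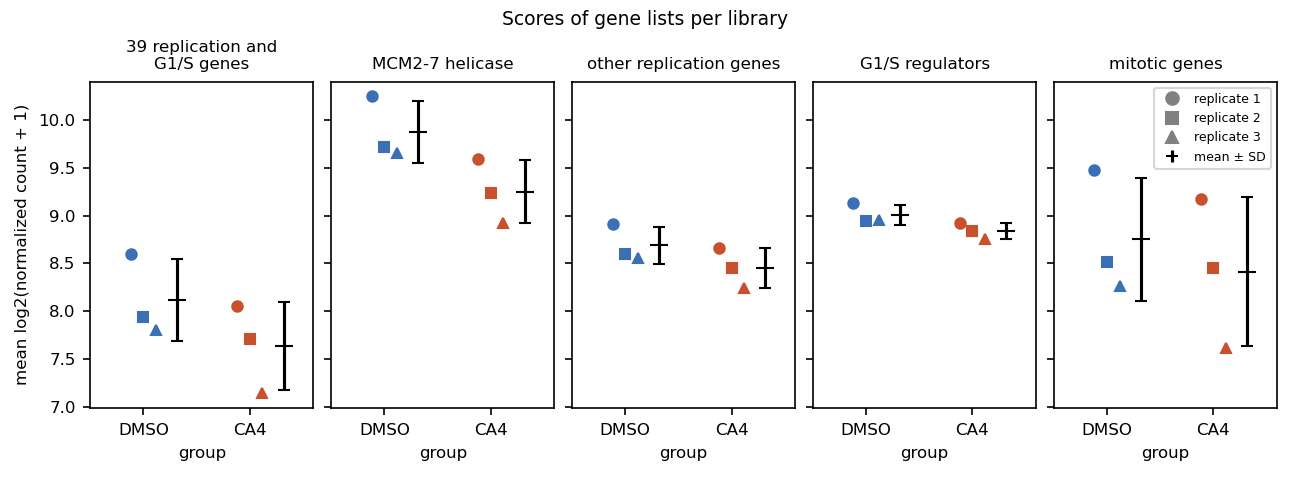
Mean log2(normalized count + 1) of the 39 genes, the MCM2-7 helicase, other replication genes, G1/S regulators and mitotic genes (panels) in the 3 DMSO (blue) and 3 CA4 (red) libraries, with black bars for mean ± SD. The groups do not overlap for the helicase and the G1/S regulators, and the mitotic genes have the widest spread within each group.

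Recovered reads per library ran from 19524936 to 22538004. Of 12 markers of retinal pigment epithelium, 8 were tested, and DCT, TYR, TYRP1 and RLBP1 were at or near 0. Of the 8, 4 were lower and 4 higher, with a median log2 fold change of 0.03, and 1 passed the threshold. OTX2, a factor of that epithelium, fell from 423, 630.1 and 547 in DMSO to 226.2, 254.7 and 250.8 in CA4 (log2 fold change -1.11, limma adjusted p = 0.0158), a call kept without DMSO 1 or CA4 2 and lost without any other 1 library (up to 0.0816). MITF and KRT18 had log2 fold changes of -0.98 and 0.46 without passing. Of 10 markers of other cell types, 3 were tested, all of endothelium, and CD3E, a T cell marker, was at 0 in every library. PECAM1 had 330.3, 337.5 and 283.9 in DMSO and 457.1, 356.8 and 916.2 in CA4, and VWF and CDH5 had log2 fold changes of 0.65 and 0.64. The summed markers of other cell types ran from 981 to 1437 in DMSO and from 1318 to 3240 in CA4, with the highest value in CA4 3, the library in which most of the 39 genes were lowest. The part of these markers in the result was not tested.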

How the data were processed

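The authors deposited a signal per gene and library, reads scaled by 1 factor per library, which is called the normalized count here. The submitters' processing notes name Trim Galore 0.6.6, FastQC 0.12.1, Salmon 1.8.0, STAR 2.7.9a, DESeq2 1.44.0 and build GRCh38, and the read counter, annotation and use of strand are not given in the sources used here. Within a tolerance of 0.01, 100% of the values in each column were multiples of what 1 read is worth, so whole reads were recovered by division. A count of 0 allows up to 3 reads, counting error only.

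Genes with a mean of at least 10 were tested on log2(normalized count + 1) with limma 3.58.1 in R 4.3.3 (treatment only, variance trend, two-sided, Benjamini-Hochberg over 13928 genes, threshold 0.05). Fold changes are on that scale, which understates low genes. edgeR 4.0.16 and DESeq2 1.42.0 ran on the recovered reads. The 39 genes and all lists were chosen with earlier results of these data known. Values per library are given for the 2 most expressed genes and the smallest p of each role, and the 3 smallest p of each other list are named.

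Alternatives were pseudocounts of 0.1 and 5, no filter, a minimum mean of 50, quantile, 75th percentile and equal-total scaling, no trend, a robust prior, a replicate block, and leaving out each library. Leaving out both libraries of a replicate number was added after seeing the data.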

Additional observations from a re-analysis of the deposited data

How the results depend on the processing

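The median log2 fold change of the 39 genes stayed under 0 in every alternative run, from -0.601 to -0.45 over other settings and from -0.652 to -0.208 when libraries were left out. Among the 39, the number with a log2 fold change above 0 was 3 under quantile scaling, 0 with edgeR, 0 with DESeq2 and 0 to 9 when libraries were left out; RFC2 then had 0.01 under quantile scaling. The number past the threshold was 4 with DESeq2 (10.3%, against 4.99% of all genes called lower) and 0 to 2 when libraries were left out. The number without overlap was 10 with equal totals (25.6%, where 22.5% of all genes were lower without overlap). It was 7 to 25 when libraries were left out, where fewer libraries also leave more genes apart. The 7 (17.9%) came without DMSO 1, CA4 2 or CA4 3, where 21.9%, 20.2% and 17.4% of all genes were lower without overlap. The 25 (64.1%) came without CA4 1, where 17.9% of all genes were lower without overlap, and without both libraries of replicate 1, where 26.6% were. Over all genes, 688 passed in limma, 103 without the trend, 1595 with DESeq2, and from 5 (without both libraries of replicate 3) to 994 (without DMSO 1) when libraries were left out. RPA1, CDK6, MYC and OTX2 missed the threshold without the trend, and CDKN1A missed it without both libraries of replicate 2 or of replicate 3. DESeq2 also called HELLS, MITF and KRT18. The median of the G1/S regulators was -0.308 with equal totals, which moved the median of all genes to -0.109, and ran from -0.248 to -0.1 when libraries were left out, while that of the mitotic genes ran from -0.736 to 0.073 and that of the other replication genes from -0.262 to -0.085. Log2 fold changes that changed sign, or in CDH5 reached 0, when libraries were left out ran from -0.23 to 0.08 in ORC6, -0.21 to 0.11 in RFC2, -0.5 to 0.2 in LIG1, -0.45 to 0.03 in RRM1, -0.62 to 0.14 in E2F1, -0.65 to 0.07 in DTL and 0 to 0.99 in CDH5. Without DMSO 1, RFC4 and TK1 were above 0 too, and CDC6 reached 1.02, while CDC6 was under 0 without DMSO 3, CA4 2 or both libraries of replicate 2. Without CA4 3, RRM2 stood at -0.05, CDT1 at -0.1 and VWF at 0.25, and without DMSO 1 FEN1 stood at -0.06. The cause was not tested, beyond there being fewer libraries in those fits.

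With the replicate block, 2397 genes passed, of which 1137 were lower (8.16% of all tested), and 11 of the 39 (28.2%) passed: CHAF1A, CHAF1B, CLSPN, MCM2, MCM3, MCM4, MCM5, MCM7, PCNA, TYMS and UHRF1, with a smallest adjusted p of 0.004 in MCM4 by limma. The block also called 9 of 46 other replication genes lower (19.6%; HELLS and ASF1A among them), 7 of 35 G1/S regulators lower (20%), 6 of 32 mitotic genes lower (18.8%; KIF20A, CCNB2 and NUSAP1 among them), and MITF and KRT18, so gained calls were not limited to the 39. Same-numbered libraries correlated in their deviations from the group means at 0.202, 0.159 and 0.059 over 13928 genes, which is not over 0.1 for each pair, and 5 of 6 libraries correlated best with their own number. Over the 39 genes alone these correlations were -0.076, -0.137 and 0.451. The labels do not say what the number marks. At all 3 numbers 31 of the 39 genes (79.5%) were lower in CA4, against 27.9% of all tested genes. Depth limits POLE2 most, with 6 reads in its lowest library.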
